A study of Homo sapiens with 26 samples.

Results

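Breast progenitor markers are genes used to tell immature cells of the mammary gland from mature ones. The 8 described here, KIT, ALDH1A1, ALDH1A3, PROM1, CD44, CD24, SOX9 and SOX4, were listed by name, and all 8 were measured among the 19775 genes of the table. They were chosen with earlier results of these data known, so counts of them beside the share of all genes are not a test of the set. Each gene is given by its main probe set, the brightest over all 26 arrays of those that name a single gene. The 8 genes had 32 such probe sets of 54613. A log2 intensity is the logarithm of an array's brightness for a probe set, and a change is a difference of group means on that scale. Brightness also depends on the probes, so levels of different genes are not directly comparable. Percentiles among the genes of an array, given below for cell type markers and some of the 8 genes, carry that limit.

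KIT is the receptor tyrosine kinase for stem cell factor, and in the breast it marks luminal progenitor cells. ALDH1A1 and ALDH1A3 oxidise retinaldehyde to retinoic acid, and the aldehyde dehydrogenase activity of a cell is widely used to sort breast stem and progenitor cells. CD44, a receptor for hyaluronan, and CD24, a small glycoprotein of the cell surface, are read together when such cells are sorted. PROM1 (CD133) is a membrane glycoprotein, and SOX9 and SOX4 are transcription factors of the HMG-box family. Notch receptors are cleaved by gamma-secretase after binding a ligand, and the freed part of the receptor acts with the DNA-binding protein RBPJ on its target genes.

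All 26 arrays came from MDA-MB-468, a human line grown from a triple-negative, basal-like breast tumour, so every group is the same line and none is a mammary tissue. The antagonism experiment treated cells for 24 h, after 40 h of growth, with A4, an antibody against NOTCH3 (10 µg/ml and 0.05% DMSO, 2 arrays), with the gamma-secretase inhibitor DAPT (5 µM, with a control IgG at 10 µg/ml, 3 arrays), or with the control IgG at 10 µg/ml and 0.05% DMSO (3 arrays). In the agonism experiment, plated more densely, a DMSO plate had 0.05% DMSO and all others 5 µM DAPT for 16 h, and every plate was then washed and kept for 2 h in plain medium. The DAPT-treated cells were then given beads carrying JAG1-Fc, a Notch ligand, the activating NOTCH3 antibody A13 (20 µg/ml), beads carrying Fc alone, control IgG (20 µg/ml), or DAPT again (5 µM). The DMSO plate received DMSO again, DAPT and DMSO were renewed at 22 h, and cells were harvested at 24 h, with 3 arrays in each of these 6 groups. Nothing in the labels says that a group's arrays are separate cultures, so p-values measure only the spread between the samples, possibly a technical one.

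The promoters of the 3 genes whose levels moved most in the agonism experiment are shown because they differ widely in base composition. Each run is the 250 bases before the first start site that RefSeq gives on GRCh38.p14, 5′ to 3′ on the strand of the gene, and capitals mark each CpG. KIT lies at chr4:54657707-54657956 on the plus strand, ALDH1A1 at chr9:72953054-72953303 on the minus strand and ALDH1A3 at chr15:100879581-100879830 on the plus strand.
KIT: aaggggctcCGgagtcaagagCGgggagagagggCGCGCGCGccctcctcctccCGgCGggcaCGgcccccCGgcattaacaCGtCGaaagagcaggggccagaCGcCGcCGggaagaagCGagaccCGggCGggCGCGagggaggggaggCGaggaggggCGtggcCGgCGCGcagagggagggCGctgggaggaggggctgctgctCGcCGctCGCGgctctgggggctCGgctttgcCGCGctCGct
ALDH1A1: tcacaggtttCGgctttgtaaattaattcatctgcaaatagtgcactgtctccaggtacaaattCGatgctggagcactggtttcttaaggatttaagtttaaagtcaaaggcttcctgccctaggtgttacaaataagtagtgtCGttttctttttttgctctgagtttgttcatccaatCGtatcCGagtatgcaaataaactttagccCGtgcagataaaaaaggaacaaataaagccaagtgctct
ALDH1A3: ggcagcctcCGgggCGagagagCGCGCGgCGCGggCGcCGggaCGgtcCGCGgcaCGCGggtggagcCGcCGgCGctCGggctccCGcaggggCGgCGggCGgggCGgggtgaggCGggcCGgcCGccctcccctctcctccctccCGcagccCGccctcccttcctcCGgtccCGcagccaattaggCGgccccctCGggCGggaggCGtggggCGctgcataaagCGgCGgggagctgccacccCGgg
KIT held 34 CpG, ALDH1A1 6 and ALDH1A3 38 in these bases. With the next 50 bases included, 74.3% of the KIT window, 40.3% of the ALDH1A1 window and 81.7% of the ALDH1A3 window was G or C, against a median of 58.7% over all promoter windows. KIT and ALDH1A1, which had nearly the same course over the agonism arrays, had unlike promoters in this respect.

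RBPJ is known for binding sites with the core TGGGAA, and the windows of 300 bases (250 before and 50 after a start) were searched for these letters on both strands. RefSeq windows were found for 7 of the 8 genes, all but SOX9, and numbered 12 in all. The letters were present in 3 of the 12, namely 2 windows of CD24 and the window of SOX4, against 24.0% of all 35116 windows. A match of CD24, a gene of the minus strand, and that of SOX4, on the plus strand, both on chromosome 6, are shown with the bases around them and the letters in capitals. They begin 109 and 110 bases before the start sites of their windows. The other CD24 match lies in another window with its own start site. It is on the opposite strand of that window and begins 238 bases before that site.
CD24: ctccccagctccTGGGAAgatgcggacccg
SOX4: gttccaagccaaTGGGAAgcccgggggagg
The windows of KIT, ALDH1A1, ALDH1A3, PROM1 and CD44 did not hold these letters. A match is a description of the sequence and was not tied to any binding measured here.

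The labelled epithelial identity was seen in the data. Of the epithelial markers, EPCAM, KRT8, KRT18 and KRT19 lay at or above the 97th percentile of genes on every array, CDH1 at the 89th to the 93rd and CLDN4 at the 75th to the 83rd. Of the basal ones, EGFR was at or above the 99th, KRT5 at or above the 94th and KRT14 at the 54th to the 79th. The hormone receptors PGR and ESR1 lay at the 14th to the 21st and the 29th to the 57th, and ERBB2 at the 67th to the 77th. The leukocyte markers PTPRC and CD3E lay at the 6th to the 13th and the 46th to the 54th. CD14, listed with leukocytes and also with luminal progenitors, lay at the 73rd to the 88th. TPSAB1, CPA3 and FCER1A, which mark mast cells, another cell type rich in KIT, lay between the 12th and the 49th percentile. Of the endothelial markers, PECAM1 lay at the 55th to the 65th, VWF at the 36th to the 48th and CDH5 at the 15th to the 34th. The fibroblast marker COL1A1 lay at the 70th to the 79th, a range that overlaps those of CLDN4 and KRT14. COL1A2, COL3A1 and PDGFRB lay between the 18th and the 48th, and LUM at the 1st to the 3rd. OLFM4 fell by 1.29 with A4 and by 1.33 with DAPT in the antagonism experiment (adjusted p = 0.0444 and 0.0152), rose by 3.98 with A13 over IgG and by 2.59 with JAG1-Fc beads over Fc beads (adjusted p = 2.8e-13 and 4.57e-10), and MYC and HES1 passed in the same directions. NRARP rose with both agonists (1.90 and 1.01, adjusted p = 2.18e-12 and 4.07e-08) but did not pass with A4, with DAPT over control or with DAPT over DMSO (adjusted p = 0.342, 0.286 and 0.0563). NOTCH3 fell with A4 and with DAPT and rose with A13, and it gave 0.46 with JAG1-Fc beads (adjusted p = 0.0525).

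KIT was highest with the activating antibody and lowest under DAPT. Its log2 intensities were 8.59, 8.85 and 8.67 with JAG1-Fc beads, 9.22, 9.03 and 9.27 with A13, 7.99, 7.88 and 7.78 with Fc beads, 7.98, 8.08 and 8.25 with IgG, 7.47, 7.44 and 7.48 with DAPT, and 8.01, 8.22 and 7.98 with DMSO. Every A13 array lay above every JAG1-Fc array, these lay above all remaining arrays, and every DAPT array lay below all others, while the IgG, DMSO and Fc bead arrays overlapped with their neighbours in the order. KIT rose with A13 over IgG by 1.07 ± 0.09 (SE, a 2.1-fold rise, adjusted p = 1.48e-07) and with JAG1-Fc beads over Fc beads by 0.82 ± 0.09 (1.76-fold, adjusted p = 1.02e-05). Under DAPT it fell by 0.61 ± 0.09 relative to DMSO (adjusted p = 0.000156), and cells released from DAPT into IgG stood 0.64 ± 0.09 above cells kept in DAPT (adjusted p = 0.00014). Released cells did not differ detectably from the DMSO plate, with a change of 0.03 (95% interval -0.16 to 0.22, adjusted p = 0.828). The whole span, A13 over DAPT, was 1.71 ± 0.09, or 3.28-fold. In a culture measured in bulk, more cells with KIT and more KIT RNA per cell cannot be told apart, and the same holds for each gene below.

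ALDH1A1 followed the same order of groups. Its log2 intensities were 9.32, 9.48 and 9.47 with JAG1-Fc beads, 10.05, 10.20 and 10.19 with A13, 8.61, 8.44 and 8.40 with Fc beads, 8.70, 8.85 and 8.94 with IgG, 8.24, 8.13 and 8.08 with DAPT, and 8.78, 8.84 and 8.67 with DMSO. The A13, JAG1-Fc, Fc bead and DAPT arrays each formed a range of their own, and only the IgG and DMSO arrays overlapped. The rise with A13 over IgG was 1.32 ± 0.08 (2.49-fold, adjusted p = 1.71e-09), and that with JAG1-Fc beads over Fc beads was 0.94 ± 0.08 (1.92-fold, adjusted p = 4.34e-07). DAPT lowered it by 0.61 ± 0.08 relative to DMSO (adjusted p = 3.97e-05), and release into IgG raised it by 0.68 ± 0.08 over DAPT (adjusted p = 1.46e-05). A13 cells held 4-fold more than DAPT cells, a change of 2.00 ± 0.08.

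**Figure D1:**
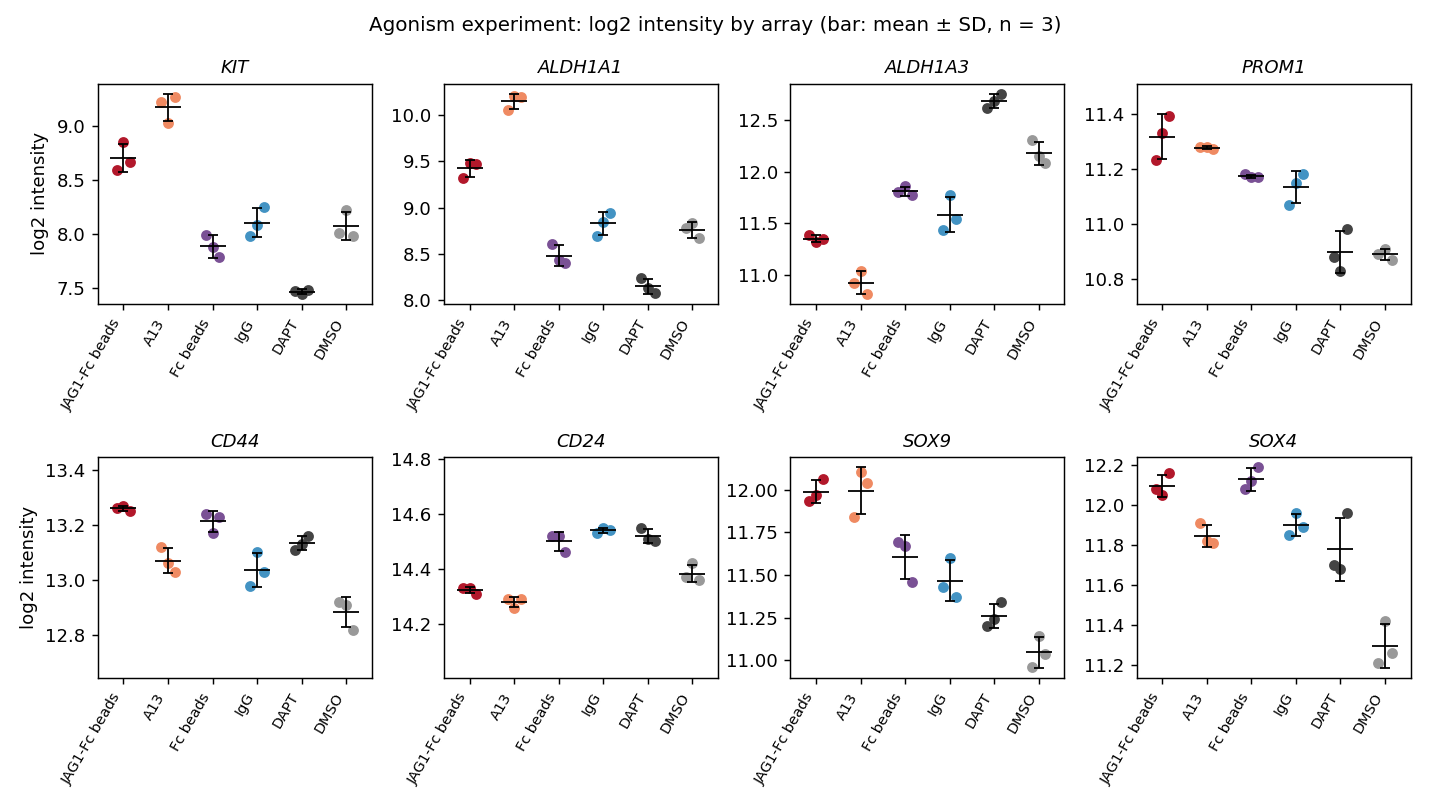
Log2 intensity (vertical axes, 1 scale per gene) of the 8 genes on the 18 agonism arrays, by treatment. Points are arrays and bars are means ± SD of 3 arrays. KIT and ALDH1A1 are highest with A13, then with JAG1-Fc beads, and lowest with DAPT, and ALDH1A3 runs the other way.

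ALDH1A3 moved against its close relative. Its log2 intensities were 11.39, 11.32 and 11.35 with JAG1-Fc beads, 10.93, 11.04 and 10.82 with A13, 11.80, 11.86 and 11.77 with Fc beads, 11.44, 11.77 and 11.54 with IgG, 12.61, 12.68 and 12.75 with DAPT, and 12.30, 12.15 and 12.08 with DMSO. All 6 groups were apart from their neighbours, though the highest IgG array and the lowest Fc bead array were equal to 2 decimals, with A13 lowest and DAPT highest. ALDH1A3 fell with A13 by 0.65 ± 0.08 relative to IgG (adjusted p = 1.35e-05) and with JAG1-Fc beads by 0.46 ± 0.08 relative to Fc beads (adjusted p = 0.0012). DAPT raised it by 0.51 ± 0.08 over DMSO (adjusted p = 0.000257). Release into IgG lowered it by 1.10 ± 0.08 below DAPT (2.14-fold, adjusted p = 7.76e-08), which also took it 0.59 ± 0.08 below the DMSO plate (adjusted p = 3.68e-05), whereas the IgG and DMSO arrays overlapped for KIT and ALDH1A1.

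The second ALDH1A3 probe set, 1558649_at, was dim, with a mean of 5.97 over the agonism arrays, where array medians were 6.84 to 6.88. It fell with A13 (-0.35, adjusted p = 0.0264 over all probe sets) and gave 0.05 with JAG1-Fc beads, 0.16 on release and 0.04 with DAPT, none of which passed. With the mean of both probe sets, the changes in ALDH1A3 were -0.50 with A13, -0.20 with JAG1-Fc beads, 0.28 with DAPT over DMSO, -0.47 on release, -0.19 for IgG over DMSO, -0.97 for A13 over DAPT, -0.69 for A13 over DMSO and -0.67 for JAG1-Fc beads over DAPT, all of which still passed. KIT and ALDH1A1 each had a single probe set.

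**Figure D2:**
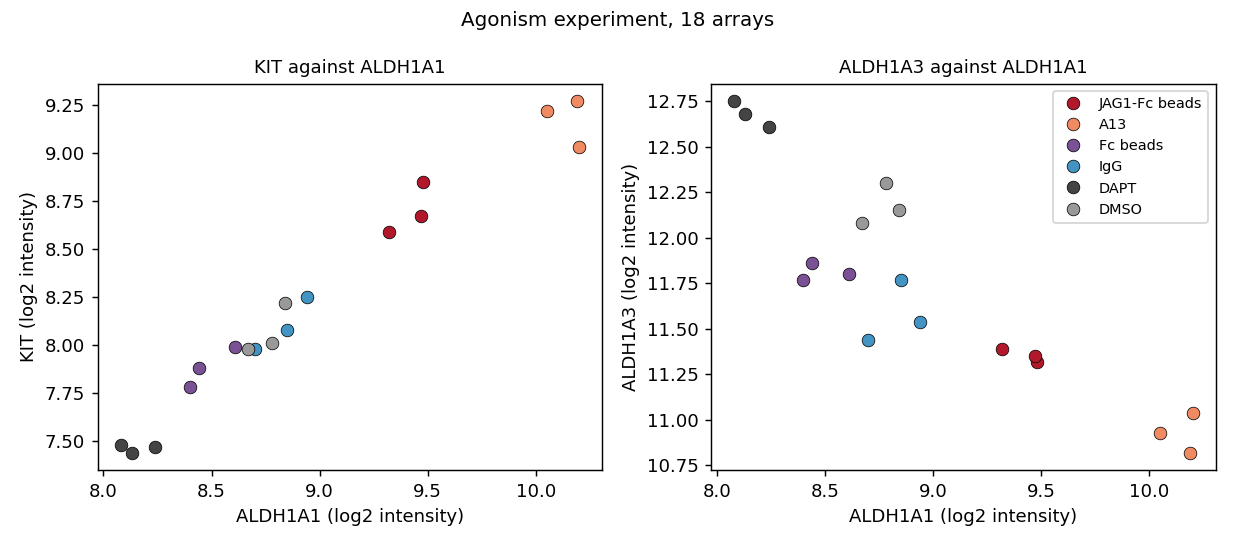
Log2 intensity of KIT (left) and ALDH1A3 (right) against that of ALDH1A1 on the 18 agonism arrays, coloured by treatment. KIT is higher where ALDH1A1 is higher, with the A13 arrays at the top and the DAPT arrays at the bottom. ALDH1A3 runs the other way, with the IgG arrays below the DMSO arrays at similar ALDH1A1.

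Across the 18 agonism arrays, Pearson's r of log2 values was 0.985 for KIT with ALDH1A1, -0.91 for KIT with ALDH1A3 and -0.89 for ALDH1A1 with ALDH1A3. These arrays fall into treatment groups, so the coefficients describe the groups more than the arrays within them. SOX9 went with PROM1 (r = 0.92) and CD44 with SOX4 (r = 0.88), while KIT with CD44 gave 0.08.

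Of the 9887 genes above the median level in that experiment, those closest in course to KIT were ALDH1A1, GUCY1B1 (r = 0.982), OLFM4 (0.974), VSNL1 (0.972) and FAM171B (0.970). GUCY1B1 encodes a subunit of soluble guanylate cyclase, and VSNL1 a neuronal calcium sensor. Closest to ALDH1A1 were GUCY1B1 (0.989), KIT (0.985), GUCY1A1 (0.973), the partner subunit of that cyclase, LURAP1L (0.968) and CYP26B1 (0.967), an enzyme that breaks down retinoic acid. The most opposed courses were those of CMAHP (-0.977), TMEM79 (-0.970) and TMC5 (-0.969) for KIT, and of PTGES (-0.973), a prostaglandin E synthase, TMC5 (-0.973) and GLYATL2 (-0.967) for ALDH1A1.

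With A13 over IgG, 5 of the 8 genes passed the test, which here and below means limma with Benjamini-Hochberg adjustment over all genes at 0.05. KIT, ALDH1A1 and SOX9 rose, and ALDH1A3 and CD24 fell, where 14.7% of all genes passed. JAG1-Fc beads over Fc beads, which share no arrays with that comparison, gave the same 5 genes in the same directions, where 8.11% of all genes passed. Both comparisons took their spread from 1 fit of all 18 agonism arrays. With only the compared groups in the limma fit, CD24 did not pass with JAG1-Fc beads (-0.17, adjusted p = 0.132). The median change over the 8 genes was 0.09 in each, against -0.03 and 0.01 over all genes. The remaining 3 genes did not pass in either. PROM1 gave 0.14 with each agonist (adjusted p = 0.112 with A13 and 0.146 with JAG1-Fc beads), CD44 0.04 and 0.05, and SOX4 -0.05 and -0.04.

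**Figure D3:**
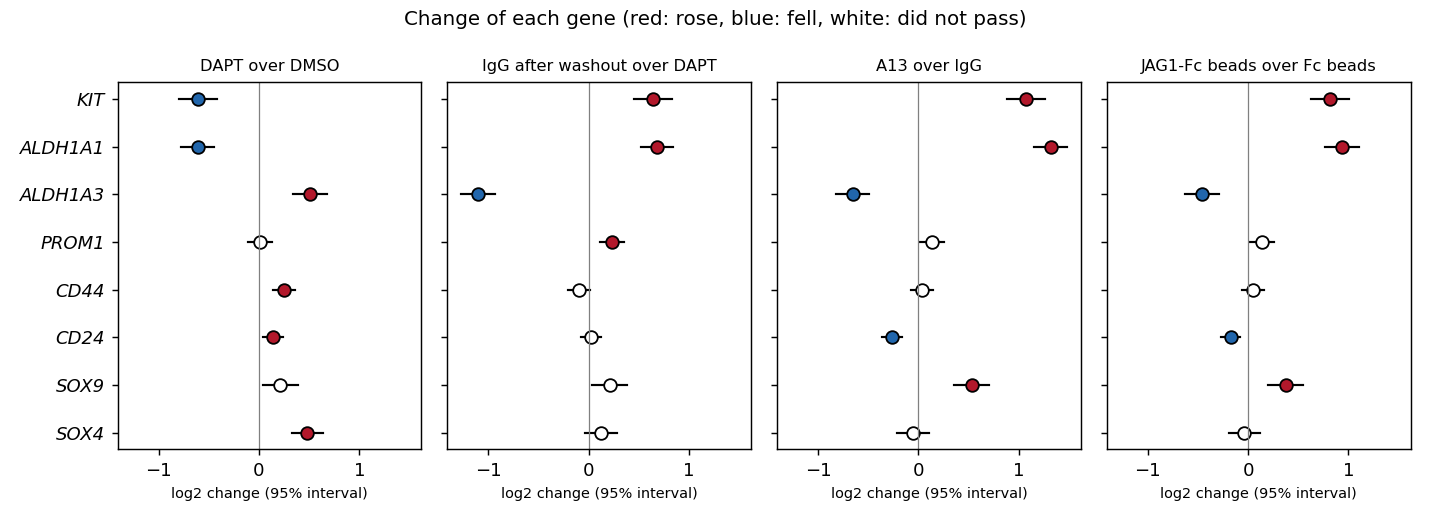
Log2 change of each gene with its 95% interval (horizontal axes) in 4 comparisons of the agonism experiment, each of 3 against 3 arrays. Filled points passed the test, red for a rise and blue for a fall. KIT, ALDH1A1 and ALDH1A3 change sides between DAPT over DMSO and the other 3 panels, with KIT at -0.61 under DAPT and at 1.07 with A13.

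The antibody and the ligand beads were also set directly against each other. In JAG1-Fc bead cells KIT was lower than in A13 cells by a change of -0.47 ± 0.09 (adjusted p = 0.00377) and ALDH1A1 by -0.73 ± 0.08 (adjusted p = 1.75e-05), while ALDH1A3 was higher by 0.43 ± 0.08 (adjusted p = 0.00344) and CD44 by 0.19 ± 0.05 (adjusted p = 0.0363). These were the 4 genes that passed, where 6.37% of all genes did. The CD44 call was lost on leaving out any of the 6 arrays, with adjusted p between 0.0508 and 0.126. The carriers differed as well, since ALDH1A1 was lower with Fc beads than with IgG by -0.35 ± 0.08 (adjusted p = 0.0266), the single member called where 2.08% of genes passed. That call was lost without IgG array 2 or 3 or without Fc bead array 2 or 3 (adjusted p between 0.0698 and 0.114), and KIT gave -0.22 (adjusted p = 0.263). When each agonist was taken over its own carrier, none of the 8 genes differed in its effect (JAG1-Fc minus A13) by limma, where 0.182% of all genes did and 1 of the 8 had an unadjusted p under 0.05 (5.93% of all genes). That gene was ALDH1A1, at -0.38 ± 0.11 (95% interval -0.61 to -0.15, adjusted p = 0.365), and KIT gave -0.25 ± 0.13 (95% interval -0.52 to 0.01).

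DAPT over DMSO changed 6 of the 8 genes, where 20.7% of all genes passed. KIT and ALDH1A1 fell, and ALDH1A3, CD44, CD24 and SOX4 rose. The median over the 8 was 0.17, against 0.02 over all genes. On release into IgG, 4 of the 8 passed relative to DAPT, where 9.77% of all genes did, with KIT, ALDH1A1 and PROM1 higher and ALDH1A3 lower. Released cells still differed from the DMSO plate in 6 of the 8, where 30.6% of all genes passed, with PROM1, CD44, CD24, SOX9 and SOX4 higher and ALDH1A3 lower. The comparisons with A13 and IgG share the IgG arrays, and those with DAPT share the DAPT arrays, so they are not separate evidence.

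A13 over DAPT called 6 genes (28.2% of all genes), with KIT, ALDH1A1, PROM1 and SOX9 higher and ALDH1A3 and CD24 lower. JAG1-Fc beads over DAPT called these and SOX4, which was higher, 7 in all (33.2% of all genes). A13 over DMSO also called 7 (30.9% of all genes), all but CD24, with ALDH1A3 as the lower gene.

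At its main probe set CD24 had 14.33, 14.33 and 14.31 with JAG1-Fc beads, 14.29, 14.26 and 14.29 with A13, 14.52, 14.52 and 14.46 with Fc beads, 14.53, 14.55 and 14.54 with IgG, 14.55, 14.51 and 14.50 with DAPT, and 14.37, 14.42 and 14.36 with DMSO. Both agonist groups lay below every other group, and the DMSO arrays lay between them and the rest. The main probe set lay at the 99.8th or the 99.9th percentile of the genes of each array. Whether changes are compressed at that level was not tested. CD24 fell by 0.26 ± 0.05 with A13 relative to IgG (adjusted p = 0.000646) and by 0.17 ± 0.05 with JAG1-Fc beads relative to Fc beads (adjusted p = 0.026), and it rose by 0.14 ± 0.05 with DAPT over DMSO (adjusted p = 0.0439). The JAG1-Fc call was lost without any of 5 arrays, all but Fc bead array 3 (adjusted p between 0.0649 and 0.107). The DAPT call was lost without any DAPT array or without DMSO array 1 or 3 (adjusted p between 0.075 and 0.139). Relative to DMSO, CD24 was higher in IgG cells by 0.16 (adjusted p = 0.0143), a call lost without DMSO array 1 or 3 (adjusted p = 0.0525 and 0.0555). All 6 CD24 probe sets are of the kinds that can also detect related transcripts. So are the only probe sets of KIT and PROM1 and the 2 of SOX9. With A13, 4 of the 6 CD24 probe sets fell when adjusted over all probe sets, the most by 0.48 (209772_s_at). That probe set, dimmer than the main one, also fell by 0.42 with JAG1-Fc beads relative to Fc beads, by 0.60 with A13 relative to DAPT and by 0.42 with A13 relative to DMSO (adjusted p = 0.000126, 1.74e-07 and 1.65e-05 over all probe sets), so the size of the CD24 change depends on the probe set.

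CD44 had 13.26, 13.27 and 13.25 with JAG1-Fc beads, 13.12, 13.06 and 13.03 with A13, 13.24, 13.17 and 13.23 with Fc beads, 12.98, 13.10 and 13.03 with IgG, 13.11, 13.13 and 13.16 with DAPT, and 12.92, 12.91 and 12.82 with DMSO. The DMSO arrays were the lowest, and those of DAPT, A13 and IgG overlapped with their neighbours. CD44 was higher than in DMSO with DAPT by 0.25 ± 0.05 (adjusted p = 0.00221), with IgG by 0.15 ± 0.05 (adjusted p = 0.0326) and with A13 by 0.19 ± 0.05 (adjusted p = 0.00858). The IgG call was lost when DMSO array 1 or 3, or IgG array 2 or 3, was left out (adjusted p between 0.0501 and 0.149), and the A13 call without DMSO array 3 (adjusted p = 0.052).

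The 13 probe sets of CD44 did not agree. With DAPT over DMSO, adjusted over all probe sets, 8 rose, by 0.23 to 0.27, and 2 fell, 1565868_at by 0.76 (adjusted p = 0.013) and 216056_at by 0.55 (adjusted p = 0.0395). With IgG over DMSO, 0 rose and 3 fell, namely 1565868_at by 1.53 (adjusted p = 4.23e-05), 217523_at by 1.42 (adjusted p = 0.000865) and 216056_at by 0.77 (adjusted p = 0.00303), and the main probe set then gave 0.15 (adjusted p = 0.0622). The probe sets that fell had agonism means of 6.91, 7.27 and 9.0, whereas those that rose with DAPT had means of 9.93 to 13.12. With the mean of all 13 probe sets, the changes over DMSO were -0.03 for DAPT, -0.25 for IgG and -0.19 for A13 (adjusted p = 0.836, 0.00701 and 0.0293), so the direction for CD44 rests on the probe set chosen. The parts of the gene that these probe sets match were not looked up here.

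**Figure D4:**
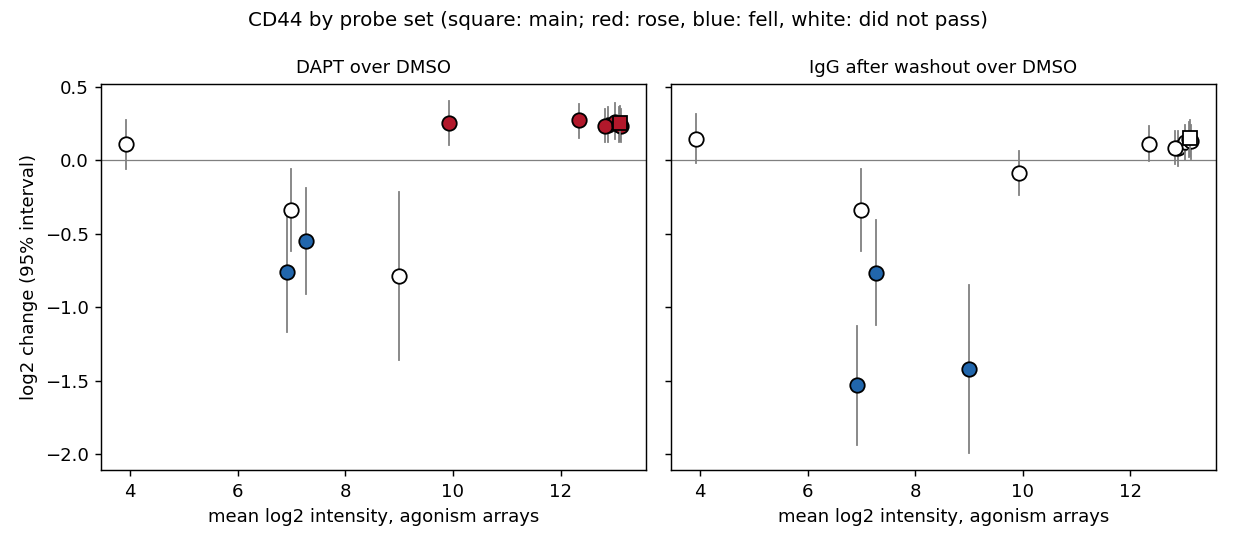
Log2 change of each of the 13 CD44 probe sets with its 95% interval (vertical axes) against its mean log2 intensity over the agonism arrays, for DAPT over DMSO (left) and IgG after washout over DMSO (right). Squares are the probe set that is brightest over all 26 arrays. Bright probe sets sit slightly above 0 on the left, and 3 dimmer ones lie between -0.77 and -1.53 on the right.

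PROM1 took small steps that together set the agonists apart from DAPT. It had 11.23, 11.33 and 11.39 with JAG1-Fc beads, 11.28, 11.28 and 11.27 with A13, 11.18, 11.17 and 11.17 with Fc beads, 11.07, 11.15 and 11.18 with IgG, 10.88, 10.83 and 10.98 with DAPT, and 10.89, 10.91 and 10.87 with DMSO. The DAPT and DMSO arrays overlapped and lay below all others. It rose on release into IgG by 0.23 ± 0.06 over DAPT (adjusted p = 0.0125), a call lost without IgG array 2 or 3 or DAPT array 1 or 2 (adjusted p between 0.0511 and 0.0626). PROM1 stood 0.37 ± 0.06 above DAPT with A13 (adjusted p = 4.59e-05) and 0.42 ± 0.06 above it with JAG1-Fc beads (adjusted p = 1.1e-05).

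SOX9, a factor of luminal progenitors, had 11.93, 11.97 and 12.06 with JAG1-Fc beads, 11.84, 12.10 and 12.04 with A13, 11.69, 11.67 and 11.46 with Fc beads, 11.43, 11.60 and 11.37 with IgG, 11.20, 11.24 and 11.34 with DAPT, and 10.96, 11.14 and 11.04 with DMSO. The agonist groups overlapped each other and lay above all other arrays, and the DMSO arrays lay below all others. SOX9 rose by 0.53 ± 0.08 with A13 over IgG (1.44-fold, adjusted p = 0.000217) and by 0.38 ± 0.08 with JAG1-Fc beads over Fc beads (1.3-fold, adjusted p = 0.00751), and both of its probe sets passed in both. Unlike KIT and ALDH1A1, it did not fall under DAPT, where its change over DMSO was 0.21 ± 0.08 (adjusted p = 0.0843). This rise passed with repeated quantile normalisation or with an intensity trend and robust prior (adjusted p = 0.0302 and 0.029). It also passed with genes above the median only, with array weights or without DMSO array 2 (adjusted p = 0.0348, 0.0201 and 0.047).

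SOX4 had 12.08, 12.05 and 12.16 with JAG1-Fc beads, 11.91, 11.82 and 11.81 with A13, 12.08, 12.12 and 12.19 with Fc beads, 11.85, 11.96 and 11.89 with IgG, 11.70, 11.68 and 11.96 with DAPT, and 11.21, 11.42 and 11.26 with DMSO. The DMSO arrays lay below all others, and the other groups were close together. SOX4 was higher than in DMSO with DAPT by 0.48 ± 0.07 (adjusted p = 0.000216) and with IgG by 0.60 ± 0.07 (adjusted p = 1.81e-05), and 4 of its 6 probe sets rose in each. The mean of the 6 gave 0.37 for IgG over DMSO. Because the DMSO plate had not been treated with DAPT before, a change over DMSO holds the earlier DAPT as well as the later treatment.

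Blocking NOTCH3 in the antagonism experiment moved none of the 8 genes past the test by limma. With A4 over control, 0 of 8 passed (0.101% of all genes) and 1 had an unadjusted p under 0.05 (9.28% of all genes). With DAPT over control, 0 of 8 passed (0.354% of all genes) and 2 had an unadjusted p under 0.05 (13% of all genes). With A4 over DAPT, 0 of 8 passed, as did 0% of all genes, and 1 of the 8 had an unadjusted p under 0.05 (8.23% of all genes). KIT had 7.29 and 7.39 with A4, 7.09, 7.36 and 7.41 with DAPT, and 7.48, 7.16 and 7.42 in controls, and the 3 groups overlapped. Its change was -0.01 with A4 (95% interval -0.29 to 0.26) and -0.07 with DAPT (95% interval -0.32 to 0.18). KIT was dim on these arrays, at the 22.6th to the 30.2nd percentile of the genes of an array. Whether a fall could be measured at that level was not tested.

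ALDH1A1 had 8.45 and 8.16 with A4, 8.47, 8.39 and 8.24 with DAPT, and 8.43, 8.33 and 8.40 in controls, also with overlap. The change was -0.08 with A4 (95% interval -0.32 to 0.15) and -0.02 with DAPT (95% interval -0.24 to 0.19). ALDH1A3 had 12.71 and 12.55 with A4, 12.55, 12.61 and 12.58 with DAPT, and 12.70, 12.63 and 12.76 in controls. Its DAPT arrays lay just below the controls, by -0.12 ± 0.07 (adjusted p = 0.529).

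The smallest unadjusted p-values belonged to the SOX genes and to PROM1. SOX4 had 12.19 and 12.22 with A4, 11.94, 11.94 and 12.03 with DAPT, and 11.91, 11.83 and 12.02 in controls, a change with A4 of 0.28 ± 0.08 (adjusted p = 0.284). SOX9 had 12.04 and 11.92 with A4, 11.68, 11.79 and 11.99 with DAPT, and 12.10, 12.08 and 12.16 in controls, a change with DAPT of -0.30 ± 0.09 (adjusted p = 0.195). PROM1 had 11.35 and 11.46 with A4, 11.24, 11.48 and 11.62 with DAPT, and 11.08, 11.13 and 11.30 in controls, a change with DAPT of 0.28 ± 0.10 (adjusted p = 0.31). CD44 ranged from 13.32 to 13.48 and CD24 from 14.35 to 14.44 over all 8 arrays. Arrays did not overlap for 5 of the 8 genes with A4, where 24.9% of all genes had none, and for 3 of 8 with DAPT, where 17.9% had none. When arrays were weighted by their agreement (limma's array weights), 2 genes passed with A4, namely PROM1 at 0.32 (adjusted p = 0.0365) and SOX4 at 0.30 (adjusted p = 0.00699). Weighting gave 4 with DAPT, namely KIT at -0.24, ALDH1A3 at -0.13, PROM1 at 0.30 and SOX9 at -0.34 (adjusted p = 0.0136, 0.0376, 0.00472 and 0.00107).

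**Figure D5:**
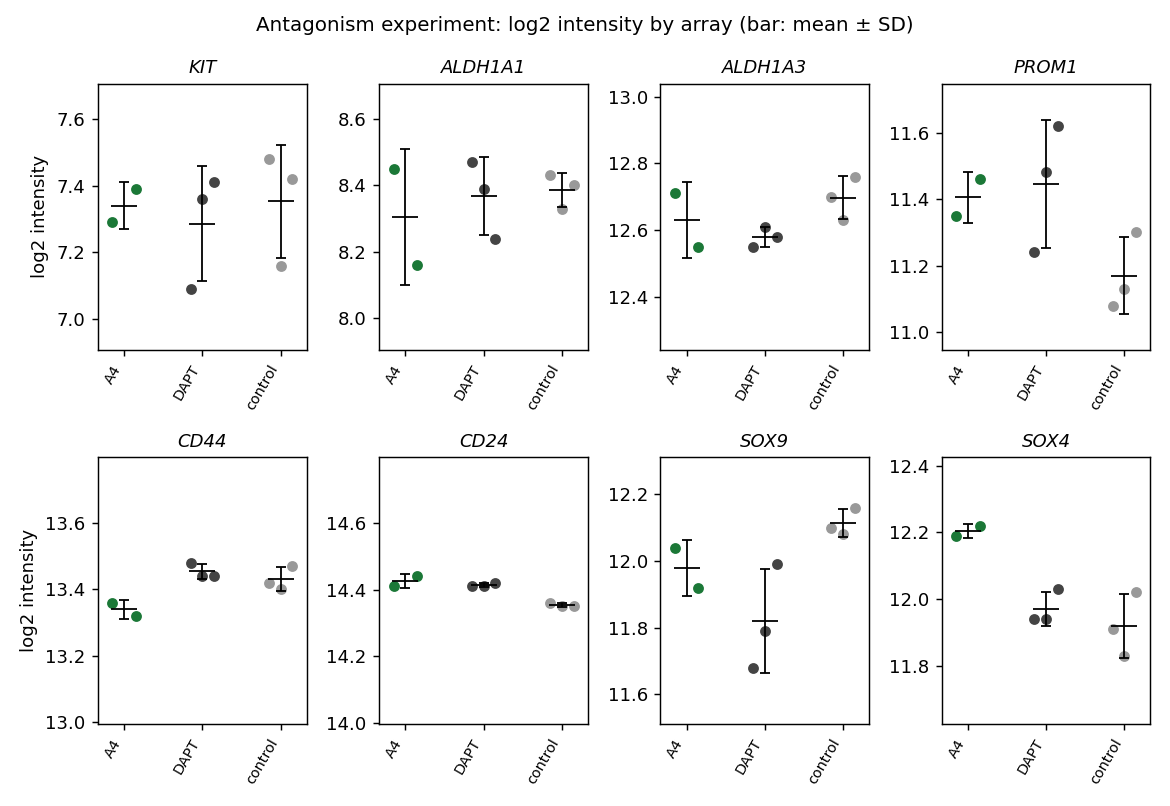
Log2 intensity (vertical axes, 1 scale per gene) of the 8 genes on the 8 antagonism arrays. Points are arrays and bars are means ± SD of 2 (A4) or 3 arrays. KIT lies between 7.09 and 7.48 on all 8 arrays with overlap of the groups, and SOX4 is highest on both A4 arrays.

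DAPT was used in both experiments, for different times and at different cell densities, so its effects were set against each other in a fit over all 26 arrays. The difference, antagonism minus agonism, passed for 5 of the 8 genes, where 6.12% of all genes passed. It was 0.54 ± 0.14 for KIT (adjusted p = 0.0303) and 0.59 ± 0.12 for ALDH1A1 (adjusted p = 0.00787), which fell under DAPT in the agonism experiment. KIT was dim on the antagonism arrays, and whether a fall could be measured there was not tested. For ALDH1A3 it was -0.63 ± 0.11 (adjusted p = 0.00391), for SOX9 -0.51 ± 0.12 (adjusted p = 0.0191) and for SOX4 -0.43 ± 0.10 (adjusted p = 0.0191). The calls for KIT, SOX9 and SOX4 each depended on single arrays, which are named in the closing section.

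Other genes of the same pathways were read from lists that had been chosen with results of these data known. Of 18 measured genes of KIT signalling, 2 rose and 5 fell with A13 (14.7% of all genes passed), and 11 did not pass. KITLG, the ligand of KIT, fell by 0.65 ± 0.06 with A13 (adjusted p = 3.49e-07) and by 0.48 ± 0.06 with JAG1-Fc beads (adjusted p = 3.65e-05), opposite to its receptor in these comparisons. On release into IgG, KITLG was higher than in DAPT by 0.32 ± 0.06 (adjusted p = 0.00194), the same direction as KIT. FYN, a kinase of the SRC family, rose by 0.73 with A13 (adjusted p = 2.09e-06), CBL, a ubiquitin ligase that acts on receptor kinases, rose by 0.30 (adjusted p = 0.00438), and PIK3R1, a regulatory subunit of PI 3-kinase, fell by 0.44 (adjusted p = 0.000187). With JAG1-Fc beads 1 rose and 2 fell (8.11% of all genes passed). The list's median was -0.00 with A13 and 0.02 with JAG1-Fc beads, against -0.03 and 0.01 over all genes.

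Of 17 other aldehyde dehydrogenases, 2 rose and 6 fell with A13, and 1 rose and 2 fell with JAG1-Fc beads, while 8 rose and 0 fell with DAPT over DMSO, where 14.7%, 8.11% and 20.7% of all genes passed. ALDH4A1, of proline breakdown, rose with both agonists (0.64, adjusted p = 0.000339, and 0.42, adjusted p = 0.0176). ALDH2, which clears acetaldehyde, fell with both (-0.43, adjusted p = 0.000484, and -0.26, adjusted p = 0.0347) and rose by 0.47 with DAPT (adjusted p = 0.000267). ALDH3A1 did likewise, with -0.43 and -0.40 (adjusted p = 0.0111 and 0.0296) and a rise of 1.08 with DAPT (adjusted p = 4.52e-06). The list medians were -0.09 with A13, -0.05 with JAG1-Fc beads and 0.16 with DAPT, where the median of all genes with DAPT was 0.02.

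In the retinoid pathway, of which ALDH1A1 and ALDH1A3 make the active product, 1 of 19 measured genes rose and 5 fell with A13, and 1 rose and 4 fell with JAG1-Fc beads, where 14.7% and 8.11% of all genes passed. CYP26B1 was the gene that rose, by 0.84 with A13 and 0.31 with JAG1-Fc beads (adjusted p = 5.55e-08 and 0.00434). DHRS3, which turns retinaldehyde back to retinol, fell by 1.08 and 0.42 (adjusted p = 7.42e-09 and 0.000949), and STRA6, the receptor that takes up retinol, fell by 0.62 and 0.61 (adjusted p = 2.31e-07 and 9.4e-07). The medians of the list were -0.08 and 0.01, beside -0.03 and 0.01 over all genes.

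The counts of these lists with A13 stand beside 14.7% of all genes, and those of the CD44 partners and SOX genes lie near it. Among the partners of CD44, 2 of 15 genes rose and 1 fell with A13, led by CEMIP2, a hyaluronan-degrading protein, at 0.45 (adjusted p = 0.00022), which also rose by 0.47 with JAG1-Fc beads (adjusted p = 0.000327). Of 10 other surface markers, 0 rose and 3 fell with A13, and PROM2, the relative of PROM1, fell by 0.37 (adjusted p = 0.00135) and by 0.43 with JAG1-Fc beads (adjusted p = 0.000798). Of 17 other SOX genes, 2 rose and 0 fell with A13, namely SOX11 by 0.37 (adjusted p = 0.0152) and SOX7 by 0.34 (adjusted p = 0.0241). The medians of these lists with A13 were 0.02, -0.11 and -0.04, against -0.03 over all genes.

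Other genes of the breast lineages did not all go with KIT. Of 14 further luminal progenitor genes, 0 rose and 6 fell with A13, and 0 rose and 3 fell with JAG1-Fc beads, where 14.7% and 8.11% of all genes passed. KRT15, a keratin, fell by 0.60 and 0.39 (adjusted p = 4.71e-06 and 0.00119), and ELF3, an epithelial ETS factor, by 0.57 and 0.26 (adjusted p = 1.51e-06 and 0.00812). CD14 fell by 0.72 and BBOX1 by 0.31 with A13 (adjusted p = 4.15e-06 and 0.0106), opposite to KIT. With DAPT over DMSO 3 of the 14 rose and 3 fell, where 20.7% of all genes passed. BBOX1 and CD14 fell there by 0.62 and 0.38, as KIT did (adjusted p = 3.49e-05 and 0.00242). ITGA2 and ELF3 rose by 0.72 and 0.37 (adjusted p = 8.92e-06 and 0.000279). On release into IgG 2 rose and 3 fell relative to DAPT (9.77% of all genes passed). CD14 and BBOX1 were those that rose, by 0.75 and 0.73, as KIT did (adjusted p = 5.76e-06 and 6.08e-06). ITGA2 and KRT15 were among those that fell, by 0.74 and 0.42 (adjusted p = 6.02e-06 and 0.000501). Of 17 basal and mammary stem genes, 3 rose and 3 fell with A13, and 3 rose and 1 fell with JAG1-Fc beads. The basal keratins KRT14 and KRT5 rose by 1.39 and 1.30 with A13 (adjusted p = 2.14e-10 and 1.71e-09) and by 1.14 and 0.93 with JAG1-Fc beads (adjusted p = 1.33e-08 and 4.34e-07). ITGB4, an integrin subunit, fell by 0.59 with A13 and by 0.58 with JAG1-Fc beads (adjusted p = 0.000232 and 0.000698). Of 15 mature luminal genes, 0 rose, 9 fell and 6 did not pass with A13, and 0 rose, 6 fell and 9 did not pass with JAG1-Fc beads. With DAPT over DMSO 10 of them rose and 0 fell, where 20.7% of all genes passed. Among the mature luminal genes AGR2, a protein disulfide isomerase, fell by 1.47 with A13 and by 1.27 with JAG1-Fc beads (adjusted p = 2.54e-10 and 1.01e-08). The luminal transcription factor FOXA1 fell by 0.90 with A13 and by 0.50 with JAG1-Fc beads (adjusted p = 3.27e-07 and 0.000662). With DAPT over DMSO, AGR2 rose by 0.93 and FOXA1 by 0.75 (adjusted p = 2.47e-07 and 8.42e-06). The list medians with A13 were -0.07, -0.05 and -0.24 for these 3 lists, against -0.03 over all genes.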

How the data were processed

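The deposited table holds, per array and probe set, a linear intensity between 7.12 and 32597 made by the authors. Per the submitters' processing notes, RMA and R 2.10 were used, in roles the notes do not state. Joint or separate normalisation of the experiments is not stated. Array medians were 7.60 to 7.65 (log2) in the antagonism and 6.84 to 6.88 in the agonism experiment, so levels were not compared between them. The plan assumed log2 values, so the deposited intensities were put on a log2 scale and the test was kept as planned.

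Of 54675 probe sets 62 were controls, 6 of them naming 1 gene. The platform annotation gave 1 gene for 41091 probe sets other than controls, several for 1801 and none for 11777 (controls included). The brightest over all arrays stood for each of 19775 genes. No dim gene was left out. The fit of changes used lmFit, contrasts.fit and eBayes of limma 3.58.1 (R 4.3.3), with all groups of an experiment in 1 fit. Benjamini-Hochberg adjustment ran over all genes, with calls at 0.05. The fit was tested on simulated data. The number of arrays limits the precision. Arrays of a group are numbered in listed order, since labels give no replicate numbers, and no batches are labelled. Of 41091 probe sets, 41037 matched RefSeq gene IDs (GRCh38.p14). Figures used matplotlib 3.10.9 in Python 3.11.15.

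The members and lists were chosen with earlier results of these data known. Named genes are the 8 members, NOTCH3, NRARP, HES1, MYC and OLFM4 as checks of treatment, up to 4 passing genes per list and comparison, and for KIT and ALDH1A1 the 5 highest and 3 lowest Pearson r. Alternatives covered the choice of probe set, normalisation, array weights, an added 50 before log2, the fit's prior and samples, dim genes and each array left out.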

Additional observations from a re-analysis of the deposited data

Results flagged for a closer look

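The effect of DAPT differed between the experiments for 5 of the 8 genes, by a test of the difference itself (antagonism minus agonism, limma over all arrays). The difference was 0.54 for KIT, with a change of -0.07 in the antagonism and -0.61 in the agonism experiment. For ALDH1A1 it was 0.59, with -0.02 and -0.61. ALDH1A3 gave -0.63, with -0.12 and 0.51, SOX9 -0.51, with -0.30 and 0.21, and SOX4 -0.43, with 0.05 and 0.48. The experiments also differ in the earlier DAPT treatment and in cell density, and the part of these in the difference was not tested.

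The calls for ALDH1A1 and ALDH1A3 held on leaving out each of the 12 arrays in turn. That for KIT was lost without antagonism DAPT array 2 or 3, agonism DMSO array 1 or 3, or agonism DAPT array 2 or 3, with values between 0.47 and 0.58 and adjusted p between 0.052 and 0.0734, and adjusted p was 0.0509 when adjusted over all probe sets. SOX9 lost its call without antagonism DAPT array 1 or agonism DMSO array 1 or 3 or agonism DAPT array 3 (adjusted p between 0.0536 and 0.0628), and SOX4 without agonism DMSO array 1 or 3 or agonism DAPT array 3 (adjusted p between 0.062 and 0.065). With only the compared groups in the fit, KIT, SOX9 and SOX4 also lost their calls (adjusted p = 0.113, 0.0846 and 0.13). KIT lost its call with array weights (0.44, adjusted p = 0.107). With the mean of their probe sets, SOX9 gave -0.35 and SOX4 -0.16, and neither passed (adjusted p = 0.0567 and 0.36).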

How the results depend on the processing

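Under alternatives other than leaving out arrays, 1110 of 1185 values kept their direction and side of the threshold, 19 lost a call, 38 gained one, 3 reversed and 15 changed sign with no call. The 3 that reversed were CD44 over DMSO with the mean of its probe sets, at -0.03 for DAPT, -0.25 for IgG and -0.19 for A13. Counts of genes called that moved by over 1.5 times were these. For Fc beads over IgG, 1 became 2 with repeated quantile normalisation, with the brightest probe set within the experiment or with 50 added, 3 with an intensity trend and robust prior or with genes above the median only, and 0 with only the compared groups. For the difference of the DAPT effects, 5 became 2 with only the compared groups and 3 with the mean of the probe sets. Array weights gave 4 for DAPT and 2 for A4 over control, where 0 were called. The cause was not tested. Other counts moved less, such as IgG over DMSO, where 6 became 4 with only the compared groups.

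Leaving out 1 array gave 5 to 7 genes for DAPT over DMSO, 3 to 4 for IgG over DAPT, 4 to 6 for IgG over DMSO, 4 to 5 for JAG1-Fc over Fc beads, 0 to 1 for Fc beads over IgG, 3 for JAG1-Fc beads over A13, 6 to 7 for A13 over DMSO and 2 to 6 for the difference of the DAPT effects. It left 5 for A13 over IgG, 6 for A13 over DAPT, 7 for JAG1-Fc beads over DAPT, and 0 for the difference of the agonist effects and for the antagonism comparisons. The A13 over IgG and JAG1-Fc over Fc bead calls of KIT, ALDH1A1, ALDH1A3 and SOX9 held under all 16 alternatives. KIT and ALDH1A1 have 1 probe set each, so the alternatives on the choice of probe set could not alter their log2 changes. With A4, leaving out an array leaves a single A4 array, assumed to vary like the other groups. No paired analysis was possible because the labels give no replicate numbers. The brightest probe set within an experiment was not run for the difference of the DAPT effects, which spans both. KIT was below the median level in the antagonism arrays and has no value there among genes above it.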
